A study of Mus musculus with 9 samples.

Results

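This section describes 42 genes of mitosis and chromosome condensation in activated mouse B cells with and without the transcription factor YY1, chosen by function. They encode the kinase CDK1 with its cyclins and phosphatases, other mitotic kinases, the spindle checkpoint, kinetochore proteins, spindle motors, condensin subunits and the transcription factor FOXM1. All 42 were found among the 48795 gene IDs of the count files by symbol, and all 42 passed the filter on low counts. Levels are given as CPM, counts scaled to a common library size, and the lowest count of any of them in any library was 360.

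The cells were follicular B cells, selected on CD23 from spleens of C57BL/6 mice carrying Yy1 f/f, an allele of Yy1 flanked by loxP sites. The 3 tatcre libraries came from cells given TAT-CRE, a cell-permeable recombinase that removes the floxed gene, and the 3 mock libraries from cells given a mock treatment. Cells of both groups carried the floxed allele and were cultured with LPS and IL-4, which make resting B cells divide. Culture is given as 72 hours with 10% serum in one description and 48 hours with 20% serum in another, and the sample text lists TAT-CRE for every library, so groups follow the titles. The animals' age was not stated. The description has 3 spleens, each divided among the treatments, but no label ties a library to a spleen, so p-values measure the spread between libraries, which may be technical. Only tatcre cells met the recombinase, so its effects and those of Yy1 loss cannot be told apart.

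When a cell enters mitosis, CDK1 bound to cyclin A or B phosphorylates many proteins, condensins compact the chromosomes, and kinetochores attach them to the spindle. The spindle checkpoint holds back the anaphase-promoting complex (APC/C) until every kinetochore is attached, after which separase cuts cohesin and the cell divides. Transcripts of these genes peak late in the cell cycle, so their level in a mixed culture also follows the share of cells near division. In bulk RNA, fewer cells in mitosis and less RNA per mitotic cell cannot be told apart.

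Libraries held 22729187 to 24471132 gene counts in tatcre cells and 24842380 to 28230727 in mock cells. Yy1 stood at 0.984, 1.5 and 2 CPM in the tatcre libraries and at 100.3, 112 and 108 CPM in the mock libraries, so the deletion matched the labels. The 8 B cell markers examined summed to 4140 to 4200 CPM in tatcre and 5060 to 5350 CPM in mock libraries. Of these markers 5 were lower and none higher in tatcre cells by the edgeR quasi-likelihood test used throughout (adjusted p below 0.05 after Benjamini-Hochberg adjustment over all tested genes). The 8 T cell markers summed to 9.66 to 14.1 CPM in tatcre and 15.7 to 22.1 CPM in mock libraries, mostly from Lck (10.3 CPM in tatcre and 17 CPM in mock cells on average), with Cd3d, Cd4 and Cd8a at 3 counts or fewer in every library. Dendritic cell markers summed to 106 to 113 CPM in tatcre and 120 to 134 CPM in mock libraries, mostly from Flt3, which fell (edgeR adjusted p = 0.0486), with Itgax and Xcr1 at 3 counts or fewer in every library. Stroma and endothelium markers summed to 35.8 to 39.5 CPM in tatcre and 38.8 to 48.7 CPM in mock libraries, mostly from Pecam1, which fell (edgeR adjusted p = 0.0354). Of these, Col1a1 rose, averaging 1.89 CPM in tatcre and 0.418 CPM in mock cells (edgeR adjusted p = 0.0178). Summed NK, erythroid and myeloid markers were at most 2.3 CPM in any library. The part of other cell types in the results below was not tested.

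Differences between tatcre and mock cells were small for most of the 42 genes, called or not. Of the 42 genes 9 fell, 3 rose and 30 were not past the threshold, while DESeq2 called 11 lower and 6 higher. The 9 that fell were Spc24, Birc5, Cdc25b, Aurkb, Aurka, Cdca8, Ncapd2, Bub1b and Tpx2, and the 3 that rose were Cenpf, Ttk and Ncapd3. Among all 15546 tested genes 16.3% fell and 10.8% rose, and among the 7492 tested genes with a mean log2 CPM of 4 or above, the range in which all 42 lie, 23.3% fell and 12.6% rose. In either direction this was 27.1% of all tested genes and 35.9% of the 7492. The members' 21.4% and 7.14% lay near or below the shares at these levels, so the counts alone set the 42 genes apart from other genes in neither direction. The median log2 fold change of the 42 genes was -0.10, against 0.02 for all tested genes and -0.05 for the 7492. Of the 42 genes 25 lay below 0 and 17 above, and of the 7492 genes 4280 below and 3212 above. The balance of directions moved with scaling: 6 genes fell and 8 rose with upper-quartile factors, and 6 fell and 12 rose with library size alone, under which the median over all tested genes was 0.13 and that over the members 0.01. Without tatcre 1 only 1 gene rose, and without tatcre 2 the number was 5.

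**Figure D1:**
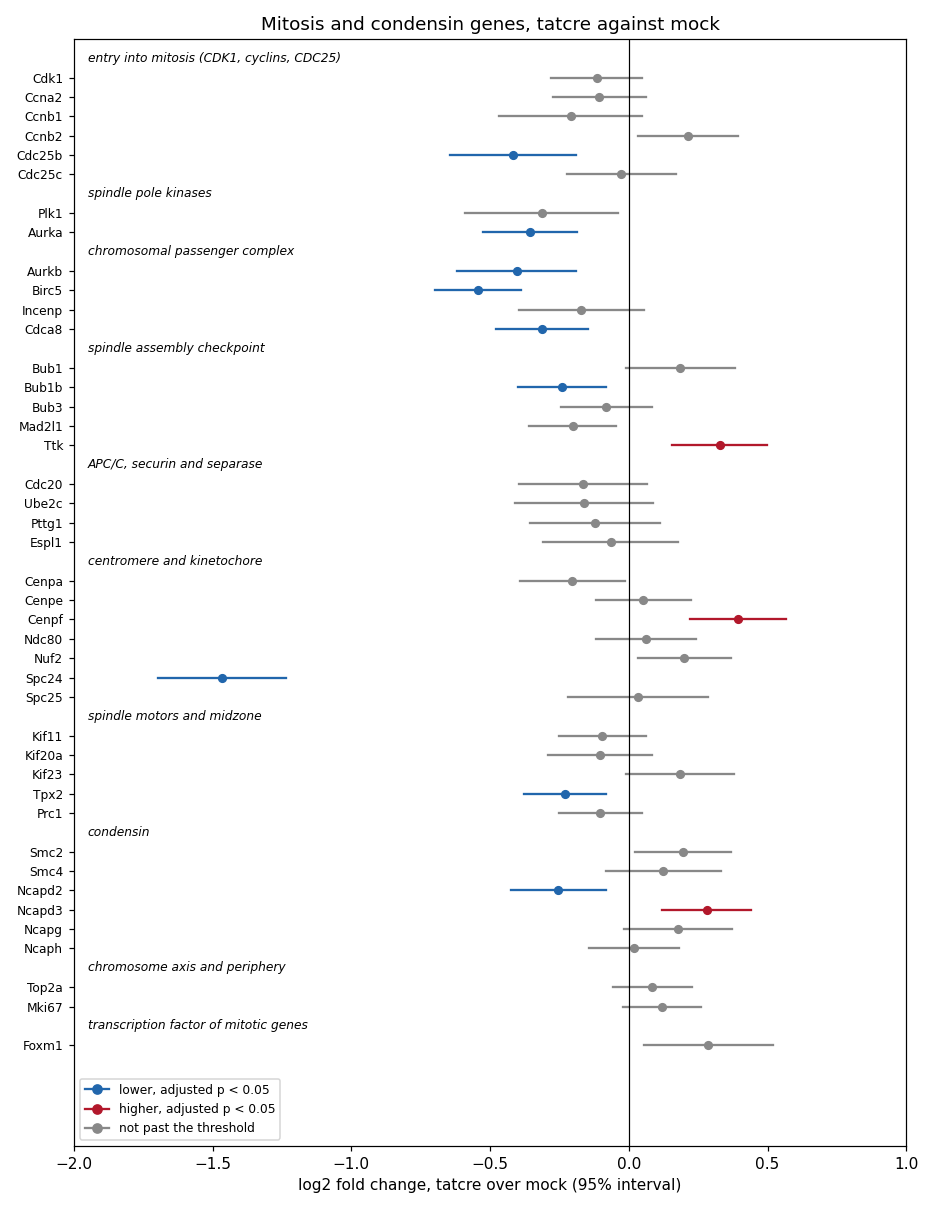
Log2 fold change of tatcre over mock cells for the 42 genes, grouped by role, from the edgeR fit; points are estimates, lines 95% intervals, and colour marks the 9 genes that fell and the 3 that rose. Spc24 lies apart at -1.47, while the 30 grey genes lie between -0.31 and 0.29.

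Precision was enough to bound the genes that missed the threshold. Standard errors of the 42 log2 fold changes ran between 0.06 and 0.12. For 28 of the 30 genes not called, the 95% interval of the log2 fold change lay within 0.5 of 0 on either side. The exceptions were Plk1, whose interval reached -0.59, and Foxm1, whose interval reached 0.52. Small changes of these genes are not excluded, and 7 of the 30 had an unadjusted p below 0.05. Of the called genes only 2 changed by at least 0.5, so this bound does not set the 30 apart from them. The 3 tatcre and 3 mock values did not overlap for 24 of the 42 genes (14 lower, 10 higher), or 57.1%, against 44% of all tested genes and 50.3% of those with a mean log2 CPM of 4 or above.

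The genes of mitotic entry did not move together. Cdc25b encodes a phosphatase that removes inhibitory phosphates from CDK1. It had 92.3, 80 and 102 CPM in the tatcre libraries, against 129, 111 and 127 CPM in the mock libraries. All tatcre values lay below all mock values, a 1.34-fold fall (log2 fold change -0.42, SE 0.10, edgeR adjusted p = 0.0117). Cdk1 itself averaged 151 ± 6.88 CPM in tatcre and 164 ± 5.48 CPM in mock cells (SD, n = 3 each; log2 fold change -0.12, 95% interval -0.28 to 0.05) without overlap, and was not called. The mitotic cyclin genes split around 0 without passing the threshold. Ccna2 and Ccnb1 had log2 fold changes of -0.11 and -0.21, and Ccnb2 stood at 224, 189 and 198 CPM in tatcre libraries, against 175, 179 and 174 CPM in mock libraries. Every tatcre value of Ccnb2 was above every mock value, with a log2 fold change of 0.21 (edgeR adjusted p = 0.0761). Cdc25c, the other phosphatase gene, had a log2 fold change of -0.03.

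Of the spindle pole kinases, Aurka fell. It encodes Aurora A, which matures centrosomes and activates PLK1, and had 81.7, 75.9 and 80.2 CPM in tatcre libraries, against 99.2, 106 and 98.6 CPM in mock libraries. The groups were well apart, with a 1.28-fold fall (log2 fold change -0.36, SE 0.08, edgeR adjusted p = 0.00632). It overlaps Cstf1 in RefSeq, so some reads may belong to that gene. Plk1 (Polo-like kinase) stood at 176, 143 and 199 CPM in tatcre libraries, against 212, 243 and 189 CPM in mock libraries, and tatcre 3 overlapped mock 3. Its log2 fold change was -0.31 (edgeR adjusted p = 0.0861), and it was called lower with DESeq2, with no filter on low counts, without tatcre 3 (edgeR adjusted p = 0.0285) and without mock 3 (edgeR adjusted p = 0.0336).

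Of the 4 genes of the chromosomal passenger complex 3 fell (75%, against 16.3% of all tested genes and 23.3% at a mean log2 CPM of 4 or above). This complex, built on INCENP, carries the kinase Aurora B to centromeres, where it corrects faulty attachments, and later to the midzone of the dividing cell. Birc5, the survivin gene on chromosome 11 (117849237 to 117855743, build GRCm38), had 169, 167 and 168 CPM in tatcre libraries, against 242, 254 and 238 CPM in mock libraries. The tatcre values were almost equal to each other and far below the mock values, a 1.46-fold fall (log2 fold change -0.54, SE 0.07, edgeR adjusted p = 0.000285). Aurkb, the gene of Aurora B, had 62.7, 54.5 and 69.4 CPM in tatcre libraries, against 81.6, 85.8 and 79.3 CPM in mock libraries (1.32-fold lower, edgeR adjusted p = 0.0106). Cdca8 (borealin) had 111, 103 and 107 CPM in tatcre libraries, against 129, 133 and 138 CPM in mock libraries (1.24-fold lower, edgeR adjusted p = 0.0105). Neither gene's groups overlapped. The scaffold gene Incenp was not called, at 308, 274 and 342 CPM in tatcre and 317, 389 and 336 CPM in mock libraries, which overlapped (log2 fold change -0.17, 95% interval -0.40 to 0.05). The ratio of Birc5 to Incenp, set to 1 for the mock mean, was 0.773, 0.859 and 0.693 in tatcre libraries, against 1.078, 0.922 and 1.000 in mock libraries. That ratio was thus lower in every tatcre library, but for a pair of genes picked after their values were seen.

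The spindle checkpoint genes went both ways. Ttk encodes MPS1, the kinase that starts checkpoint signalling at unattached kinetochores. It rose, with 73.2, 76 and 72.8 CPM in tatcre libraries, against 56.1, 61.5 and 59.4 CPM in mock libraries. The groups did not overlap (1.25-fold higher, log2 fold change 0.33, SE 0.08, edgeR adjusted p = 0.0101), though the call was lost without tatcre 1 (edgeR adjusted p = 0.0507). Bub1b encodes BUBR1, a subunit of the mitotic checkpoint complex that inhibits the APC/C, and fell to 134, 127 and 133 CPM in tatcre libraries, against 152, 159 and 156 CPM in mock libraries. This 1.18-fold fall (edgeR adjusted p = 0.0305) was lost when any library but mock 1 was left out, at adjusted p of 0.0616 to 0.081. Mad2l1 (MAD2, another subunit of that complex) averaged 186 ± 7.85 CPM in tatcre and 214 ± 2.59 CPM in mock cells and narrowly missed the threshold (edgeR adjusted p = 0.0576). Bub1, a kinase of the kinetochore, and Bub3, its partner, had log2 fold changes of 0.19 and -0.08 and were not called.

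Of the APC/C activator Cdc20, its enzyme gene Ube2c, securin and separase, none was called. In either direction 27.1% of all tested genes were called, and 35.9% at a mean log2 CPM of 4 or above. Cdc20, the APC/C activator of early mitosis, had 64.8, 51.4 and 65.4 CPM in tatcre libraries, against 67, 72.4 and 64.1 CPM in mock libraries, which overlapped (edgeR adjusted p = 0.266, log2 fold change -0.17). Ube2c, its ubiquitin-conjugating enzyme, Pttg1, which encodes securin, and Espl1, which encodes separase, had log2 fold changes of -0.16, -0.12 and -0.06. For these 4 genes the count at an unadjusted p below 0.05 was also 0, in edgeR, and DESeq2 called 0.

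The largest change of all 42 genes was in the kinetochore, in 1 subunit gene of a stable complex. SPC24, SPC25, NDC80 and NUF2 form the NDC80 complex, the rod that ties the kinetochore to microtubules, with SPC24 and SPC25 paired at its inner end. Spc24 (ENSMUSG00000074476) lies on chromosome 9 at 21755434 to 21760446, build GRCm38. Its read counts were 398, 360 and 412 in tatcre libraries, against 1034, 1277 and 1081 in mock libraries. Scaled, this was 16.3, 15 and 16.5 CPM in tatcre libraries, against 39.1, 47.3 and 46 CPM in mock libraries. Every tatcre library was below every mock library by a wide margin, a 2.77-fold fall (log2 fold change -1.47, SE 0.10, 95% interval -1.70 to -1.24, edgeR adjusted p = 5.65e-06). Its dimer partner gene Spc25 had 74.5, 91.8 and 68.2 CPM in tatcre libraries, against 70.7, 74.8 and 83.7 CPM in mock libraries. Those groups overlapped, and the 95% interval of the log2 fold change, -0.22 to 0.29, did not reach the interval of Spc24. Ndc80 was not called either (log2 fold change 0.06, 95% interval -0.12 to 0.24). Nuf2 averaged 212 ± 12 CPM in tatcre and 185 ± 7.31 CPM in mock cells without overlap and missed the threshold (edgeR adjusted p = 0.0761, log2 fold change 0.20), though it was called higher in 3 of 12 alternatives, namely upper-quartile factors, library size alone and DESeq2. The ratio of Spc24 to Spc25, set to 1 for the mock mean, was 0.379, 0.283 and 0.419 in tatcre libraries, against 0.956, 1.094 and 0.951 in mock libraries. That of Spc24 to Ndc80 was 0.363, 0.303 and 0.379 in tatcre libraries, against 0.907, 1.104 and 0.989 in mock libraries. Both pairs were picked after their values were seen.

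**Figure D2:**
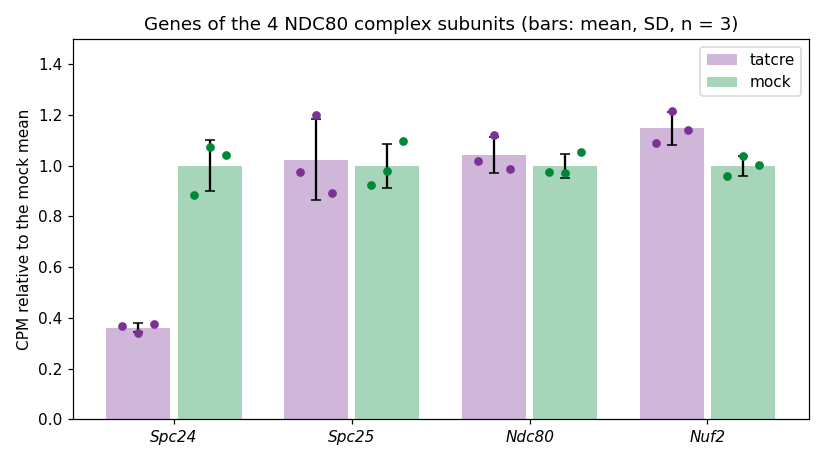
Levels of the genes of the 4 NDC80 complex subunits in tatcre (left of each pair) and mock libraries, as CPM divided by the gene's mock mean; bars are means, lines SDs over 3 libraries, points single libraries. Spc24 sits near 0.36 of its mock mean in tatcre libraries, while the other 3 genes sit at or above 0.89.

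Of the remaining kinetochore and centromere genes, Cenpf rose. It encodes a large coiled-coil protein of the outer kinetochore, and had 267, 302 and 271 CPM in tatcre libraries, against 209, 208 and 223 CPM in mock libraries. The groups were apart, with a 1.31-fold rise (log2 fold change 0.39, SE 0.08, edgeR adjusted p = 0.00369). Cenpe, a kinetochore motor, was not called (log2 fold change 0.05). Cenpa, the centromeric histone variant, had 97.9, 117 and 105 CPM in tatcre libraries, against 118, 128 and 122 CPM in mock libraries. Its values were lower without overlap but short of the threshold (edgeR adjusted p = 0.104, log2 fold change -0.20), and they were called lower without tatcre 2 (edgeR adjusted p = 0.0324).

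The spindle motor and midzone genes differed little. Tpx2, which activates Aurora A and nucleates microtubules near chromosomes, fell to 478, 466 and 465 CPM in tatcre libraries, against 535, 571 and 546 CPM in mock libraries. The 1.17-fold fall (edgeR adjusted p = 0.0267) was lost without tatcre 1, tatcre 3 or mock 2 (edgeR adjusted p of 0.0768 to 0.0795). Kif11 (the motor that separates spindle poles), Kif20a (a midzone motor), Kif23 (the motor of centralspindlin) and Prc1 (the midzone bundler) were not called, with log2 fold changes of -0.10, -0.10, 0.18 and -0.10. The values of Kif11 and Prc1 were lower in every tatcre library, and those of Kif23 higher, without passing the threshold.

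Of the 6 condensin genes 1 fell, 1 rose (16.7% each) and 4 were not called. At a mean log2 CPM of 4 or above 23.3% of tested genes fell and 12.6% rose, so these counts do not set condensin apart. SMC2 and SMC4 are the ATPase arms shared by condensin I and condensin II. NCAPD2, NCAPG and NCAPH complete condensin I, and NCAPD3 is a subunit of condensin II. Ncapd2 fell to 281, 258 and 296 CPM in tatcre libraries, against 342, 337 and 315 CPM in mock libraries (1.19-fold lower, edgeR adjusted p = 0.034). Ncapd3, its counterpart in condensin II, had 127, 128 and 121 CPM in tatcre libraries, against 101, 103 and 106 CPM in mock libraries (1.21-fold higher, log2 fold change 0.28, SE 0.07, edgeR adjusted p = 0.0159). Neither gene's groups overlapped, but neither call was stable. That of Ncapd2 was lost without tatcre 1, tatcre 2, mock 1 or mock 2 (edgeR adjusted p of 0.0732 to 0.0889), and that of Ncapd3 without tatcre 1 or mock 2 (edgeR adjusted p = 0.0946 and 0.0525). The ratio of Ncapd3 to Ncapd2, set to 1 for the mock mean, was 1.450, 1.590 and 1.313 in tatcre libraries, against 0.946, 0.978 and 1.076 in mock libraries, again a pair picked after its values were seen. Smc2 was higher in every tatcre library (644 ± 39.6 CPM in tatcre, 563 ± 38.8 CPM in mock) but not called (edgeR adjusted p = 0.0906). Smc4, Ncapg and Ncaph had log2 fold changes of 0.12, 0.18 and 0.02 and were not called. Of the subunits of condensin II outside the 42, Ncapg2 and Ncaph2 had log2 fold changes of 0.07 and 0.12 and were not called.

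The general proliferation markers and the transcription factor of the mitotic program were not lower in tatcre cells. Mki67, whose protein coats mitotic chromosomes, had 2272, 2312 and 2439 CPM in tatcre libraries, against 2072, 2177 and 2220 CPM in mock libraries. Top2a, the topoisomerase that untangles sister chromatids, had 945, 992 and 1005 CPM in tatcre libraries, against 904, 942 and 928 CPM in mock libraries. For both genes every tatcre value was above every mock value, but the differences were small and not called (log2 fold changes 0.12 and 0.08, edgeR adjusted p = 0.193 and 0.354). Foxm1, which drives transcription of many late cell cycle genes, had 83.1, 70.8 and 93.7 CPM in tatcre libraries, against 69, 70.6 and 63.5 CPM in mock libraries. Tatcre 2 was barely above mock 2, and the gene missed the threshold (edgeR adjusted p = 0.0671, log2 fold change 0.29). It was called higher in 6 of 12 alternatives, among them DESeq2 and leaving out tatcre 2 (edgeR adjusted p = 0.0104).

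**Figure D3:**
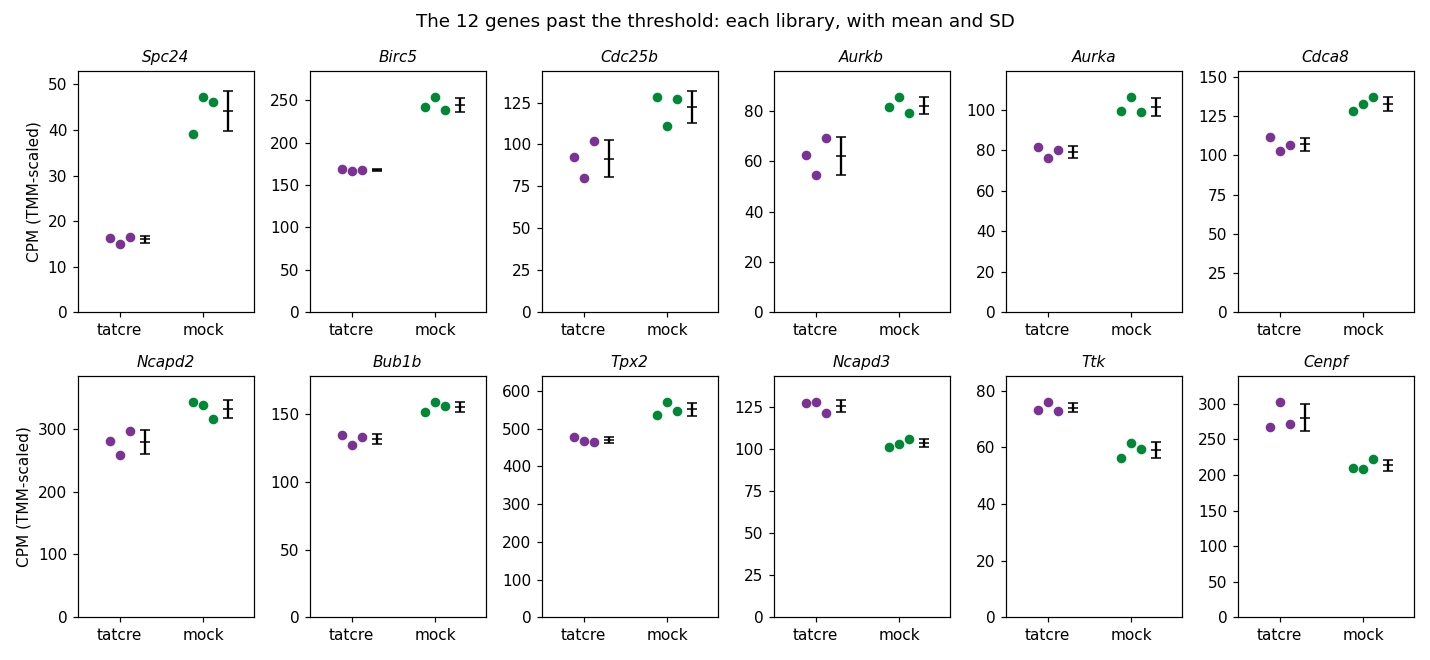
Levels, as TMM-scaled CPM, of the 12 genes past the threshold in each tatcre library (left) and mock library (right), ordered by fold change from the most lowered to the most raised; the bar beside each group gives its mean and SD (n = 3). The groups do not overlap for any of the 12 genes, but these were picked by the test on the same values. Groups also do not overlap for 12 of the 30 genes not called and for 50.3% of tested genes with a mean log2 CPM of 4 or above. All panels start at 0 CPM.

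Across alternative scalings, tools, a replicate block and leaving out each library, 12 alternatives in all, Spc24, Birc5, Cdc25b, Aurkb, Aurka and Cdca8 were called lower and Cenpf higher in every one. Bub1b, Tpx2 and Ncapd2 also had log2 fold changes below 0 in all 12, but were called in 4, 6 and 5 of them. Ttk and Ncapd3 were called in 11 and 9.

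Variation between libraries of the same group was itself patterned. The median coefficient of variation of the 42 genes was 6.15% in tatcre and 4.45% in mock cells, against 7.65% and 6.87% for tested genes with a mean log2 CPM of 4 or above. Tatcre 2 was the highest tatcre library for 20 of the 42 genes and the lowest for 18, or 90.5% in all, against 81.5% of those other genes. It was lowest by at least 0.15 on the log2 scale from the group mean for Plk1, Cdc20, Foxm1, Cdc25b, Aurkb, Ube2c, Espl1 and Incenp, all of them highest in tatcre 3. It was highest by at least 0.15 for Spc25, Ccnb1 and Bub1, all of them lowest in tatcre 3. Leaving out tatcre 2 brought Ccnb1 (edgeR adjusted p = 0.0394) and Mad2l1 (edgeR adjusted p = 0.0489) past the threshold as lower, and Ccnb2 (edgeR adjusted p = 0.0373) as higher.

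**Figure D4:**
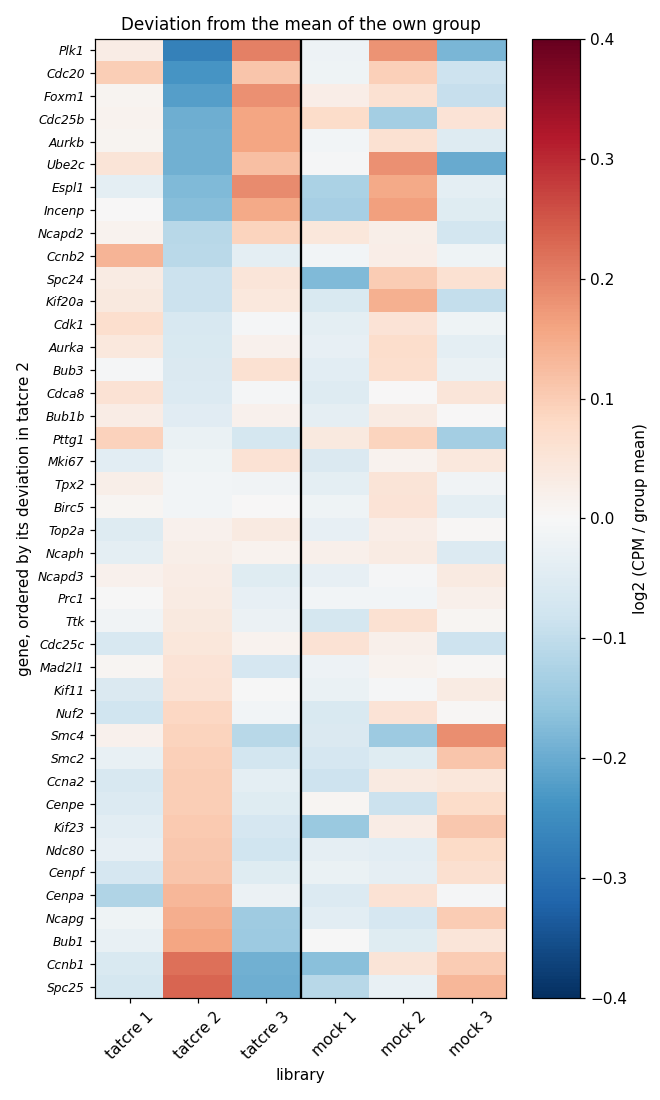
Deviation of each library from the mean of its own group, as log2 of CPM over the group mean, for the 42 genes in rows, tatcre libraries left of mock libraries, rows ordered by tatcre 2. Plk1, Cdc20 and Foxm1 at the top are low in tatcre 2 and high in tatcre 3, and Ccnb1 and Spc25 at the bottom show the opposite.

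Promoters of many of these genes hold sequence elements already known from late cell cycle genes, so their frequency here is a description and no independent result. Late cell cycle genes are known to be held back in resting cells by the DREAM complex, which binds the cell cycle homology region (CHR), and to be activated through CCAAT boxes bound by NF-Y and through the CHR bound by B-MYB and FOXM1 complexes. RefSeq promoter windows on GRCm38.p6, from 250 bases before to 50 after each start, were found for 33 of the 42 genes. They were searched on both strands for the CHR (TTTGAA or TTCGAA), the CCAAT box (CCAAT) and a YY1 element (AANATGGC). The CHR letters occurred in 26 of 33 members (78.8%), against 21.7% of the 27025 genes with a window, whether tested here or not. From 50 bases before to 50 after the start they occurred in 23 members (69.7%), against 6.12% of genes. CCAAT occurred in 26 members (78.8%), against 41.1% of genes, and 24 members (72.7%) held both elements, against 9.65%. The YY1 letters occurred in 3 members, Cdca8, Bub1 and Ndc80 (9.09%), against 6.96% of genes. By direction, the CHR letters occurred in 5 of 6 members that fell, 3 of 3 that rose and 18 of 24 not called. For Ncapd3, which has more than 1 window, the only match lay at the upstream edge of one of them. That window begins at 27060166 on chromosome 9, inside the gene (27030165 to 27096522) and away from both its ends. Birc5, of those that fell, held none of the 3 elements in its window. No window was matched for Aurkb, Ccna2, Cdc25c, Foxm1, Incenp, Kif20a, Smc4, Spc24 and Tpx2.

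The stretch from 150 bases before to 30 after the start is shown for 3 genes that fell, 2 that rose and Cdk1, which was not called. These 6 were picked as genes that hold both elements, so they cannot show whether the elements go with direction. Among called genes with a window, Birc5, which fell, held neither element, and Ncapd3, which rose, held no CCAAT box. Sequences run 5′ to 3′ on the gene's strand, and capitals mark CHR, CCAAT and YY1 letters (ATTGG and TTCAAA are CCAAT and TTTGAA read on the other strand):
Cdca8, chr4:124936888-124937067, minus strand: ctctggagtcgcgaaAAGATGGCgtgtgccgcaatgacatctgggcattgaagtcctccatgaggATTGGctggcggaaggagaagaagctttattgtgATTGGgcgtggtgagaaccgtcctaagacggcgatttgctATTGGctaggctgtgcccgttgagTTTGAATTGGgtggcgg
Cdc25b, chr2:131186798-131186977, plus strand: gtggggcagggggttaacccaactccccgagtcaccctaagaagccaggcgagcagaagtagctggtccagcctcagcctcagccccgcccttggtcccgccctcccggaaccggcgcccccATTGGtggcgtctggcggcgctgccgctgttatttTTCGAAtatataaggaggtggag
Ncapd2, chr6:125191557-125191736, minus strand: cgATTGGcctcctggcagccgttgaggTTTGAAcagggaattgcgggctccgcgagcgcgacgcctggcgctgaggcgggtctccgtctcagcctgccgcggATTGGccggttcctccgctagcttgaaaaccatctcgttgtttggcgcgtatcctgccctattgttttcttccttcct
Ttk, chr9:83834539-83834718, plus strand: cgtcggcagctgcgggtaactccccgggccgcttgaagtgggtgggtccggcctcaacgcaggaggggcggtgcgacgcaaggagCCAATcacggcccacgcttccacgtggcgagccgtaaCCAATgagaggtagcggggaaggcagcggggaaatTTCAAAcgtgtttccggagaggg
Cenpf, chr1:189688057-189688236, minus strand: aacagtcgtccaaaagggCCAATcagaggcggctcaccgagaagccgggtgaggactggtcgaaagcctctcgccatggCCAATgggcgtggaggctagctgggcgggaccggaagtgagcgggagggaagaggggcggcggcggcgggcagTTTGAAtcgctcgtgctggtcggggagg
Cdk1, chr10:69352883-69353062, minus strand: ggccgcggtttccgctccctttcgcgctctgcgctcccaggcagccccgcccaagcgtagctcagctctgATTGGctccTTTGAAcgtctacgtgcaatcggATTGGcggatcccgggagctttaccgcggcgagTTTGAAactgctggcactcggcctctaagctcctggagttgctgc
In Cdca8 the CHR shares a base with a CCAAT box read on the other strand, and the YY1 letters begin at position -135 from the start. The CHR begins at position 14 in Cdca8, 8 in Cdc25b and Ttk and 3 in Cenpf, just inside the transcript, and at -123 in Ncapd2. A match is a description of letters in the window and does not show that a factor binds there.

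Other genes of mitosis were examined in 6 lists. Of 105 genes, all tested, 15 fell and 13 rose (14.3% and 12.4%), with a median log2 fold change of 0.03. Without tatcre 1 the counts were 7 and 5, without mock 2 they were 7 and 8, and with library size alone 5 fell and 29 rose. Over all tested genes 16.3% fell and 10.8% rose, and at a mean log2 CPM of 4 or above 23.3% fell and 12.6% rose. The median log2 fold change was 0.02 over all tested genes and -0.05 at those levels. Among 35 other kinetochore, centromere and checkpoint genes 4 fell and 2 rose. Sgo1, the shugoshin that protects centromeric cohesin, rose to 156 ± 7.95 CPM in tatcre cells, against 99 ± 7.30 CPM in mock cells (1.58-fold, edgeR adjusted p = 0.000257). Cenpn, a subunit of the inner kinetochore, fell 1.53-fold (edgeR adjusted p = 0.0007) and Hjurp, the chaperone that deposits CENP-A, fell 1.32-fold (170 ± 8.21 CPM in tatcre, 225 ± 8.70 CPM in mock, edgeR adjusted p = 0.00266).

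Of 27 other spindle and cytokinesis genes 5 fell and 5 rose. Plk4, the kinase of centriole duplication, fell 1.47-fold (85.9 ± 10.1 CPM in tatcre, 126 ± 17.1 CPM in mock), while Ckap2 and Gtse1, which encode microtubule-associated proteins, rose 1.34- and 1.31-fold. The rise of Gtse1 was lost without tatcre 1 (edgeR adjusted p = 0.0524). Of 17 APC/C genes 3 fell and 3 rose, the subunit genes Anapc16 and Anapc7 falling 1.48- and 1.45-fold and Anapc4 rising 1.28-fold. Of 14 other entry regulators Pkmyt1, an inhibitory kinase of CDK1, fell 1.35-fold, and Ensa and Cdk2 rose 1.28- and 1.19-fold. These last 3 calls each depended on single libraries. Pkmyt1 was lost without tatcre 1, mock 1 or mock 2 (edgeR adjusted p of 0.0506 to 0.0676) and Ensa without tatcre 1 or mock 2 (0.0879 and 0.0629). Cdk2 was lost without any of 5 libraries, all but tatcre 2 (edgeR adjusted p of 0.0658 to 0.187). Among 10 genes of the DREAM and B-MYB complexes Rbl1, which encodes the pocket protein p107, rose 1.36-fold, and E2f4 and Rbbp4 fell 1.27- and 1.18-fold. The fall of E2f4 was lost without tatcre 1, tatcre 2 or mock 2 (edgeR adjusted p of 0.0752 to 0.103). That of Rbbp4 was lost without any tatcre library or mock 2 (0.0697 to 0.0916).

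Of 47 genes of DNA replication, the cell cycle group nearest to mitosis, 16 fell, 31 were not called and none rose (34% fell; 1 rose at an unadjusted p below 0.05 and 0 with DESeq2), with a median log2 fold change of -0.22. Shares over all tested genes were 16.3% lower and 10.8% higher, and 23.3% and 12.6% at a mean log2 CPM of 4 or above. Of the 47 log2 fold changes 34 were below 0 and 13 above. At a mean log2 CPM of 4 or above the median was -0.05, with 4280 genes below 0 and 3212 above. The count of falls was 10 without tatcre 1 and without mock 2, with library size alone 8 fell and 5 rose, and with upper-quartile factors 3 rose. Mcm5, a subunit of the replicative helicase, fell to 0.501 of its mock level (179 ± 17.8 CPM in tatcre, 357 ± 27.1 CPM in mock). Pole2, a polymerase epsilon subunit gene, fell 1.56-fold and Tk1, thymidine kinase, 1.63-fold. Whether the replication and mitosis lists differ was not tested. Among 14 genes of D and E cyclins, their kinases and CDK inhibitors none fell and 4 rose. At an unadjusted p below 0.05 in edgeR 0 fell, and 0 with DESeq2. The 4 were 28.6% of the list, while 10.8% of all tested genes rose and 16.3% fell. Cdkn1a, the gene of the CDK inhibitor p21, had 47.3 ± 5.42 CPM in tatcre and 20.2 ± 1.54 CPM in mock cells. Cdkn2a, whose locus encodes p16 and ARF from different first exons that these counts do not separate, had 50.9 ± 4.10 CPM in tatcre and 22 ± 1.20 CPM in mock cells (2.31-fold higher, edgeR adjusted p = 1.15e-05). Cdk6 rose 1.36-fold.

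**Figure D5:**
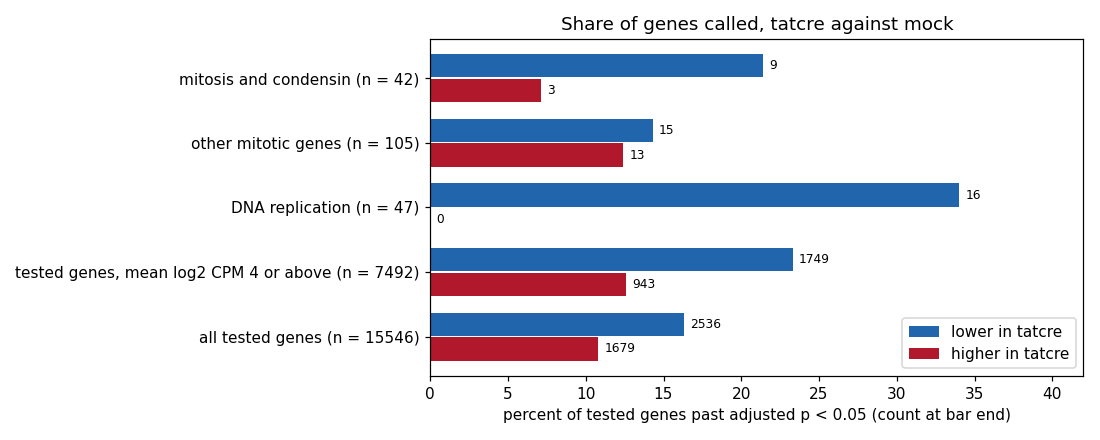
Percent of tested genes called lower or higher in tatcre cells for the 42 mitosis and condensin genes, the 105 other mitotic genes, 47 DNA replication genes, tested genes with a mean log2 CPM of 4 or above and all tested genes, with counts at the bar ends. Both mitotic lists lie near or below the shares at a mean log2 CPM of 4 or above. Of the replication genes 16 (34%) fell, against 23.3% at those levels, and 0 rose, against 12.6%. Differences between lists were not tested.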

How the data were processed

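RNA-seq of 3 tatcre and 3 mock libraries was used. The deposited RNA files hold raw read counts per Ensembl gene. The submitters' processing notes name mm10 and, without versions, HTSeq, TopHat2, Trimmomatic, MACS2 and SAMtools. Per the labels' protocols, a stranded kit was used. The sources used here state neither strand setting nor annotation nor the rule for multi-mapping reads, so reads of overlapping genes (16 of the 42 genes overlap another RefSeq gene) or near-identical copies may be assigned differently. The peak lists were not used here, because some peaks lie past the last gene of GRCm38 chromosomes.

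Symbols were matched for 48349 of 48795 IDs. Groups came from sample titles. Genes kept by filterByExpr (minimum count 10, minimum total 15; 15546 genes) were scaled by TMM and tested with edgeR 4.0.16 (R 4.3.3) by the quasi-likelihood test, Benjamini-Hochberg adjusted over all tested genes, threshold 0.05. CPM are TMM-scaled. SEs are the log2 fold change over the root of the F statistic, and intervals use the t distribution. The test was checked on simulated data with the same spread set for every gene. The planted changes were larger than those of most genes called here, so the check does not cover calls of that size. Alternatives were RLE, upper-quartile and no factors, no filter, DESeq2 1.42.0, a replicate block and leaving out each library.

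Replicates of a group differed with a chi-square of at least 8.1 per degree of freedom, so no library was counted as a repeat. Members and lists were chosen with earlier results of these data known. All 42 genes are reported; by rule, library values are given for called genes with an absolute log2 fold change of at least 0.5 and the gene of smallest adjusted p in each role, and the others shown per library were chosen after their values were seen. Of each other list, the 3 called genes of smallest adjusted p are named, with Yy1, Cdkn1a and markers.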

Additional observations from a re-analysis of the deposited data

How the results depend on the processing

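Of 504 values of the 42 genes under 12 alternatives, 450 kept their direction and side of the threshold or stayed uncalled, 25 lost a call and 29 gained one, and no called gene changed sign. With library size alone 2614 of all tested genes rose, against 1679 as reported; 12 of the 42 genes rose, 5 other mitotic genes fell and 29 rose, and 8 replication genes fell and 5 rose. With upper-quartile factors 8 of the 42 rose, 9 other mitotic genes fell and 24 rose, and 3 replication genes rose; with DESeq2 6 of the 42 rose. Falls were 60.2% of all calls as reported, 48.5% with upper-quartile factors and 42% with library size alone. Leaving out 1 library gave 998 to 1681 rises over all genes, 1 to 5 rises among the 42, 7 to 12 falls and 5 to 14 rises among other mitotic genes, and 10 to 18 falls among replication genes, the lowest counts coming without tatcre 1 or mock 2. With the replicate number as a block, 8 other mitotic genes fell, against 15 without it, and Bub1b, Tpx2, Ncapd2 and Ncapd3 were not called. Deviations of same-numbered libraries correlated at 0.06, -0.03 and 0.23, tatcre 2 correlated best with mock 1 (0.25), and the numbers were not taken as pairs. At this depth the lowest count of any member in any library was 360, in Spc24. How far counting and spread between libraries each limited precision was not tested. Causes of the shifts were not tested.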
